A study of Mus musculus with 10 samples.

Results

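Retinoid signalling was followed through 8 genes in the livers of *db/db* mice: the carrier *Rbp4*, the enzymes *Aldh1a1* and *Cyp26a1*, the receptors *Rara*, *Rarb* and *Rxra*, and the responder genes *Rarres1* and *Rarres2*. They were found by symbol, 1 row each, among the 15126 protein-coding genes of the deposited expression table. All 8 belonged to the 11041 genes whose level averaged 1 CPM or more in the livers described here (CPM being the read count scaled to the library total). *Rarres1* was chosen by its measured level in these data and the other 7 as parts of the pathway, so the values of *Rarres1* are given as a description only.

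The livers came from male *db/db* mice, which lack a working leptin receptor and are obese and diabetic, and were profiled at 10 weeks of age by RNA-seq. The mice of the AAV8-Control group (5 livers) had received an adeno-associated virus of serotype 8 (AAV8) carrying eGFP through the tail vein 5 weeks earlier. The promoter that drove eGFP was not given in the sources used here. The sample labels name the tissue as liver but the cell type as primary hepatocytes, with a culture and adenovirus protocol, whereas the study's text describes whole livers. Replicates were taken as separate livers from the labels, which do not name the animals, so the spread given here is that between these samples.

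Vitamin A leaves the hepatocyte as retinol bound to RBP4, which travels in blood in a complex with transthyretin. Inside cells retinol is oxidized to retinal by alcohol and retinol dehydrogenases and then to retinoic acid by retinal dehydrogenases such as ALDH1A1, while LRAT stores retinol as retinyl esters, mainly in hepatic stellate cells. Retinoic acid binds RAR receptors, which act on DNA as partners of RXR, and CYP26 enzymes break it down. *Cyp26a1* and *Rarb* are textbook targets of the same receptors.

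The receptors bind repeats of a short hexamer, so the upstream sequence of the responders was read from RefSeq (mouse build GRCm38.p6, 250 bases before to 50 bases after each annotated start). Entries were present for 7 of the 8 genes, in 13 windows, and none for *Rarres2*. The hexamer AGGTCA with its variant AGTTCA, and also GGGTCA with its variant GGTTCA, were searched on both strands, without removing overlaps with other motifs. At least 1 of them was present in 8 of the 13 windows and in 43.7% of all 32851 windows. A direct repeat with a gap of 5 bases is rarer, being present in 0.0974% of all windows (32), and *Cyp26a1* and *Rarb* each had one. The sequences below show that repeat in both genes, with capitals marking the hexamers, because it is what these genes share and *Rarres1* lacks. The *Rarb* stretch lies at chr14:16575507-16575535 on the minus strand, inside an exon of another annotated *Rarb* transcript, and its repeat begins 53 bases before the RefSeq start. The *Cyp26a1* stretch lies at chr19:37697770-37697798 and is read from the minus strand, opposite to the gene, with the repeat 32 bases before the start.
*Rarb* repeat: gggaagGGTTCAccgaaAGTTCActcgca
*Cyp26a1* repeat: caaattAGTTCAcccaaAGTTCAtcttta

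The longer upstream stretches are given for *Cyp26a1* (chr19:37697558-37697797, plus strand) and *Rarres1* (chr3:67515524-67515773, minus strand, outside every annotated transcript), each in the direction of its gene. The capitals again mark hexamers, which read here in the reverse orientation. *Rarres1* has a single one, 82 bases before the start, and no direct repeat with a gap of 1, 2 or 5 bases.
*Cyp26a1* upstream: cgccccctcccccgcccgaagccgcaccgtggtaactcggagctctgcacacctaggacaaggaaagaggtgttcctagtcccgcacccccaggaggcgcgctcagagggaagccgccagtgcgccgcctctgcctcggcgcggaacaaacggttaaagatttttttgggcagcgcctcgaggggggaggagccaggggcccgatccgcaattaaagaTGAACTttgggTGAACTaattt
*Rarres1* upstream: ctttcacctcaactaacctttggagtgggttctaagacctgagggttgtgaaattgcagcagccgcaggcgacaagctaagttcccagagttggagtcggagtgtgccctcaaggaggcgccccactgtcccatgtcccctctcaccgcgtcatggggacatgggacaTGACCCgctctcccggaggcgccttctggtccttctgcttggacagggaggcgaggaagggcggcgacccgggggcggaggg
A match describes the letters in the window only, and binding was not measured in these data. Of the 31 genes with a gap of 5 bases in any window, 3 reached a mean of 1 CPM in these livers: *Cyp26a1*, *Rarb* and *Blvrb* (biliverdin reductase B, named after its level was seen). Of the 15126 deposited genes, 73.0% reached that mean, but how many of the 31 are among them was not counted.

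The libraries held between 19499795 and 35498596 assigned reads (median 20769191), so that 1 read was worth between 0.0282 and 0.0513 CPM. Replicates 1 and 4 stood apart from the rest. Replicate 1 was the highest of the 5 livers for 37.8% of the 11041 genes, against 12.3% to 17.8% for the other 4, and the reads of albumin made up 8.00% of it, against 8.76% to 11.2% in the others. Replicate 4 was the lowest liver for 31.7% of genes, against 12.1% to 22.0% for the others. Where leaving out a library moved the SD of a gene described below by over 1.5 times, the value without it is given beside the gene. Hepatocyte markers were abundant, with a summed level of 97718 to 133021 CPM for 8 markers, as the liver label requires.

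The carrier and the retinal dehydrogenase were the abundant transcripts of the set, and the RAR receptors the scarce ones. Per length, as the mean CPM per kb of exon, *Rbp4* led at 2058 ± 153 (SD, n = 5) and *Aldh1a1* followed at 539.8 ± 39.1 (SD, n = 5), each above the next gene in 5 of 5 livers. *Rarres2* at 86.5 ± 5.89, *Rxra* at 71.2 ± 7.75, *Rarres1* at 61.5 ± 8.81 and *Cyp26a1* at 31.3 ± 21.3 CPM per kb (SD, n = 5 each) came next. Among these 4 the ranges of neighbours overlapped, although *Rarres2* was above *Rxra* in every one of the 5 livers. In 4 of 5 livers *Rxra* was above *Rarres1*, and in 4 of 5 *Rarres1* was above *Cyp26a1*. *Rara* at 4.90 ± 0.981 and *Rarb* at 1.23 ± 0.342 CPM per kb (SD, n = 5 each) were the lowest and overlapped neither with each other nor with *Cyp26a1*. *Rarres2* and *Rarb* share exonic bases with genes on the other strand, and counting took unambiguous reads only, so reads there were either assigned by strand or dropped. For the case that all of them were dropped, the whole count of each gene was divided by its exon bases outside the overlaps. This gave upper values of 130.2 ± 8.86 CPM per kb for *Rarres2* and 1.99 ± 0.555 for *Rarb* (SD, n = 5 each). In that case *Rarres2* would not overlap with *Rxra*, at 118 against 84.8 CPM per kb at the closest, and *Rarb* would still be below *Rara*. If reads were assigned by strand, the values given first stand.

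**Figure D1:**
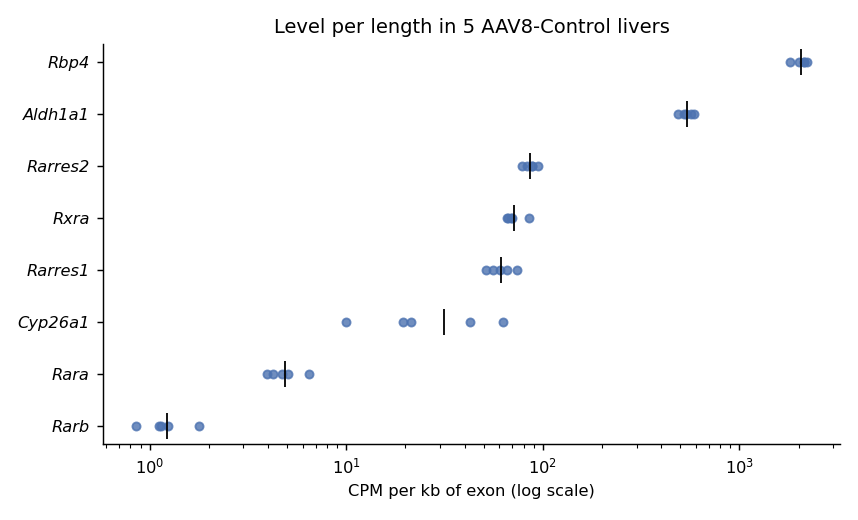
Level of the 8 genes in CPM per kb of exon (horizontal log axis), with a blue point for each of the 5 AAV8-Control livers and a black tick for the mean. *Rbp4* (mean 2058) and *Aldh1a1* (539.8) stand clear of the rest, and *Cyp26a1* is spread over the widest range, from 9.99 to 62.8.

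*Rbp4* (ENSMUSG00000024990, chr19:38116629-38125281, minus strand, positions from GENCODE on GRCm38) encodes the blood carrier of retinol and is made mainly by hepatocytes. Its levels in replicates 1 to 5 were 2704, 2854, 2436, 2961 and 2865 CPM. The 5 livers lay within 1.22-fold of each other, at a mean of 2764 ± 205 CPM (SD, n = 5), and replicate 3 was the lowest. Without replicate 3 the mean was 2846 ± 106 CPM (SD, n = 4). Only 0.335% of the 11041 genes had a higher mean CPM. The SD was 7.42% of the mean, where counting error alone would give 0.384%. *Ttr*, the transthyretin that carries RBP4, was at 6966, 8357, 7178, 8758 and 6789 CPM in replicates 1 to 5. Replicate 4 was the highest liver for both the carrier and its partner.

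*Aldh1a1* (ENSMUSG00000053279, chr19:20492715-20643465, plus strand), which oxidizes retinal to retinoic acid, was at 2810, 2399, 2590, 2891 and 2637 CPM in replicates 1 to 5. The mean was 2665 ± 193 CPM (SD, n = 5), a spread as narrow as that of *Rbp4*, with replicate 2 the lowest liver and replicate 4 the highest. *Aldh1a7*, a close relative next to it on chromosome 19 that shares 3.06% of the 50-base stretches of *Aldh1a1*, was at 419 ± 28.2 CPM (SD, n = 5). *Aldh1a2* and *Aldh1a3*, the retinal dehydrogenases of other tissues, averaged 0.222 and 0.546 CPM and were singled out after their values were seen.

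*Cyp26a1* (ENSMUSG00000024987, chr19:37697798-37701536, plus strand) encodes the main retinoic acid hydroxylase of liver. In replicates 1 to 5 it was at 124, 38.6, 19.8, 84.8 and 42.5 CPM. Replicates 1 and 4 were high, replicate 3 was low, and the highest liver was 6.28-fold above the lowest. The mean was 62.0 ± 42.2 CPM (SD, n = 5), so that the SD was 68.1% of the mean, where counting error alone would give 2.65% at 703 to 2427 reads a library. On the scale of log2(CPM + 1) the SD was 1.01, and only 0.0996% of the 11041 genes had a larger one. Without replicate 1 the mean was 46.4 ± 27.4 CPM (SD, n = 4), and 0.308% of genes had a larger SD.

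Its relative *Cyp26b1*, which also breaks down retinoic acid, was at 42.1, 11.1, 4.23, 3.54 and 4.54 CPM in replicates 1 to 5. Replicate 1 was 7.20-fold above the mean of the other 4 livers, which was 5.84 ± 3.51 CPM (SD, n = 4). The SD of *Cyp26b1* on the log2 scale was 1.36, above that of *Cyp26a1*, but the order turned without replicate 1, at 0.64 for *Cyp26b1* and 0.84 for *Cyp26a1*.

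**Figure D2:**
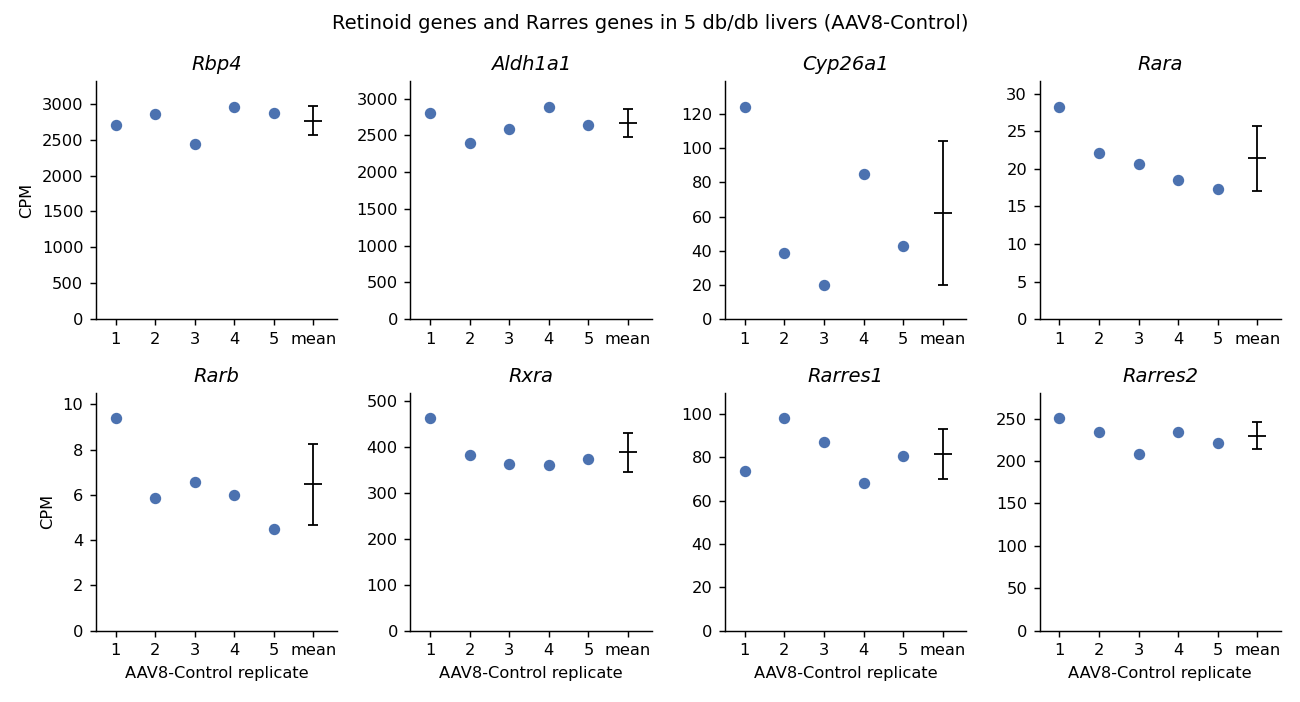
Level of each of the 8 genes in CPM (vertical axis, from 0) in AAV8-Control replicates 1 to 5 (blue points), with the mean and SD of the 5 livers in black at the right of each panel. *Cyp26a1* ranges from 19.8 to 124 CPM, whereas *Rbp4*, *Aldh1a1* and *Rarres2* keep close to their means.

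The receptors came next. *Rara* (ENSMUSG00000037992, chr11:98927818-98974942, plus strand) encodes the alpha form of the retinoic acid receptor and was at 28.3, 22.1, 20.6, 18.6 and 17.4 CPM in replicates 1 to 5. Replicate 1 was the highest, and the mean was 21.4 ± 4.28 CPM (SD, n = 5), or 19.7 ± 2.12 CPM (SD, n = 4) without it. With all livers 13.2% of genes had a larger SD on the log2 scale, and without replicate 1 the share was 38.2%.

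*Rarb* (ENSMUSG00000017491, chr14:16430839-16819156, minus strand), the receptor that retinoic acid itself induces in many cells, was counted on only 93 to 233 reads a library. It was at 9.38, 5.87, 6.56, 6.01 and 4.49 CPM in replicates 1 to 5. Replicate 1 was again the highest and replicate 5 the lowest, 2.09-fold apart, at a mean of 6.47 ± 1.80 CPM (SD, n = 5), or 5.74 ± 0.880 CPM (SD, n = 4) without replicate 1. With all livers its SD was 27.8% of the mean, where counting error alone would give 7.93%. A larger SD on the log2 scale was found for 6.64% of genes, and for 22.2% without replicate 1. The exons of *Rarb* overlap those of *Top2b* and of an antisense gene on the other strand over 2020 bases, and strand use in counting was not given in the sources used here, so whether reads there were counted is unknown.

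*Rxra* (ENSMUSG00000015846, chr2:27676440-27762957, plus strand) encodes the partner of RAR and of many other nuclear receptors and was the most abundant receptor of the 3. It was at 463, 382, 364, 361 and 375 CPM in replicates 1 to 5. Replicates 2 to 5 lay close together at 370.4 ± 9.75 CPM (SD, n = 4), and replicate 1 was 1.25-fold above their mean. Without replicate 1, 95.9% of genes had a larger SD on the log2 scale, against 44.7% with it. The other receptors were lower in CPM, with *Rxrb* at 20.6 ± 1.83, *Rxrg* at 8.17 ± 0.955 and *Rarg* at 4.88 ± 1.88 CPM (SD, n = 5 each). The spread of both *Rxrb* and *Rarg* rested on replicate 1, without which they were at 19.8 ± 0.657 and 4.08 ± 0.717 CPM (SD, n = 4 each).

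Last came the responders. *Rarres1* (ENSMUSG00000049404, chr3:67478972-67515523, minus strand) encodes a membrane protein related to latexin that was named for its induction by a synthetic retinoid in skin. In replicates 1 to 5 it was at 73.8, 98.0, 87.0, 68.0 and 80.4 CPM. Replicate 2 was the highest liver and replicate 4 the lowest, 1.44-fold apart, and replicate 1 was below the mean of 81.5 ± 11.7 CPM (SD, n = 5). Without replicate 2 the mean was 77.3 ± 8.22 CPM, and without replicate 4 it was 84.8 ± 10.3 CPM (SD, n = 4 each). The summed stellate cell markers, picked for this after the values were seen, were also highest in replicate 2 (423 CPM) and lowest in replicate 4 (304 CPM). In replicate 1, however, they were at 329 CPM, above their median of 322 CPM, where *Rarres1* was below its mean. Replicate 2 was also the highest for Kupffer cell, cholangiocyte, mesothelial and lymphocyte markers. The part of any of these cells in the *Rarres1* values was not tested. The values rested on 1440 to 3090 reads a library, and 24.1% of genes had a larger SD on the log2 scale (45.0% without replicate 2). *Lxn*, the latexin gene beside it on chromosome 3, was at 0.806 ± 0.225 CPM (SD, n = 5) and was singled out after its value was seen.

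*Rarres1* and *Aldh1a1* (a pair also singled out after the values were seen) had their extremes in the same livers with opposite sign. Replicate 2 had the highest *Rarres1* level (98.0 CPM) and the lowest *Aldh1a1* level (2399 CPM), and replicate 4 had the lowest *Rarres1* level (68.0 CPM) and the highest *Aldh1a1* level (2891 CPM). With 5 livers no correlation is given.

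*Rarres2* (ENSMUSG00000009281, chr6:48569696-48572789, minus strand) encodes chemerin, a protein secreted by liver and fat that attracts immune cells. It was at 250.4, 234, 209, 234 and 221 CPM in replicates 1 to 5. The mean was 230 ± 15.6 CPM (SD, n = 5), and 72.6% of genes had a larger SD on the log2 scale. Of its exons, 892 bases overlap *Lrrc61* on the other strand, and if reads there were dropped its level per length is the higher one given above. The chemerin receptors with values were scarce in these livers, *Cmklr1* at 2.91 ± 0.972 CPM and *Ccrl2*, which binds chemerin without signalling, at 1.56 ± 0.495 CPM (SD, n = 5 each). A further listed receptor, *Gpr1*, was absent from the deposited genes, so its level is unknown.

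**Figure D3:**
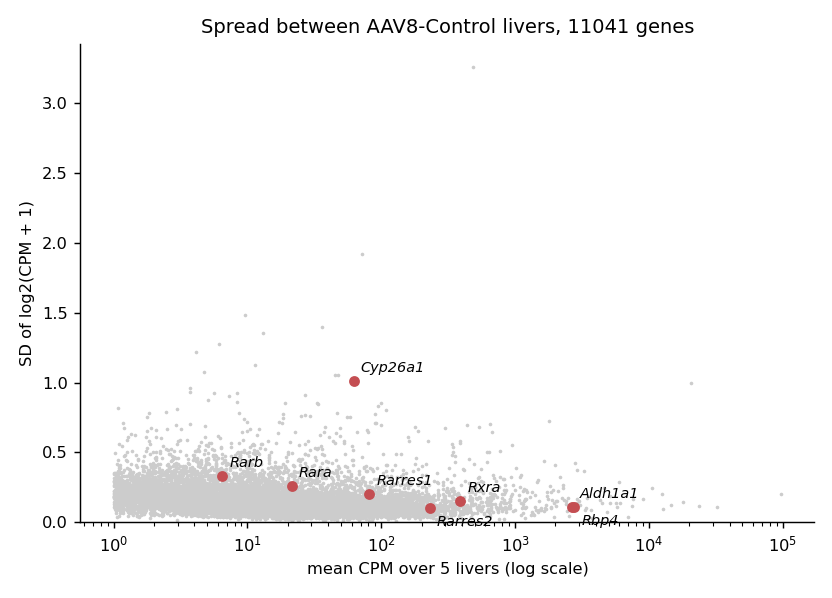
SD of log2(CPM + 1) over the 5 AAV8-Control livers (vertical axis) against their mean CPM (horizontal log axis) for 11041 genes (grey), with the 8 genes in red. *Cyp26a1* lies far above most genes of its level at 1.01, whereas *Rbp4*, *Aldh1a1* and *Rarres2* lie low, with 64.9% to 72.6% of genes having a larger SD.

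The rest of the pathway was covered by 71 listed genes, of which 62 were in the table and 50 reached a mean of 1 CPM. Their median SD on the log2 scale was 0.17, against 0.14 over all 11041 genes. By role, 19 of 22 oxidoreductases in the table reached that level, as did 6 of 6 storage and hydrolysis genes, 6 of 6 receptor coregulators, 3 of 3 receptors, 2 of 2 chemerin receptors, 5 of 8 uptake and transport genes and 4 of 5 response genes. The lowest shares were those of the list of retinal dehydrogenases and their relatives (2 of 4, *Aldh1a7* and *Aldh8a1*), of retinoic acid breakdown (1 of 2) and of the *Rarres1* relatives and partners (2 of 4). In all, 80.6% of the 62 genes reached it, against 73.0% of the 15126 genes in the table. Among the 12 below it was *Stra6*, the RBP4 receptor of other tissues, at a mean of 0.00729 CPM, while its relative *Stra6l*, a retinol transporter of liver, was at 188 ± 9.75 CPM (SD, n = 5). Both were singled out after their values were seen.

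The most abundant gene of each role per length was named by rule. *Ttr* averaged 7609 ± 888 CPM (SD, n = 5) among the transport genes. *Adh1*, which oxidizes retinol and ethanol, averaged 3336 ± 207 CPM (SD, n = 5) and was more even between livers. The lysosomal lipase *Lipa* was at 296 ± 36.0 CPM and *Tgm2*, a transglutaminase that retinoic acid induces, at 115 ± 17.8 CPM (SD, n = 5 each). Replicate 4 was the lowest liver for both, and without it they were at 311 ± 19.4 and 122 ± 10.7 CPM (SD, n = 4 each). The corepressor *Ncor1* was at 95.0 ± 8.15 CPM, and the tubulin tyrosine ligase *Ttl*, listed with the *Rarres1* partners, at 7.66 ± 1.81 CPM (SD, n = 5 each), the latter at 6.93 ± 0.929 CPM (SD, n = 4) without replicate 3. *Pnpla3* encodes a lipid droplet lipase that can release retinol from retinyl esters in stellate cells and is also known as a feeding-responsive gene of hepatocytes. It was at 8.31, 13.0, 24.4, 2.0 and 8.75 CPM in replicates 1 to 5. Replicate 3 was the highest liver and replicate 4 the lowest. Its SD on the log2 scale was 1.13, and it was 1.30 without replicate 1, 0.96 without replicate 3 and 0.67 without replicate 4. *Lrat*, which makes retinyl esters and marks stellate cells, was at 29.8, 23.4, 15.3, 14.2 and 14.2 CPM in replicates 1 to 5. Its mean was 19.4 ± 6.97 CPM (SD, n = 5), or 16.8 ± 4.44 CPM (SD, n = 4) without replicate 1. *Pnpla3* and *Lrat* were picked after their values were seen.

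Replicate 1 was the highest liver for 5 of the 8 genes (*Rarres2*, *Rara*, *Rarb*, *Rxra* and *Cyp26a1*) and for 20 of the 50 pathway genes. The latter is 40.0%, beside 37.8% over all genes, but the lists differed in their counts, from 5 of 6 receptor coregulators and 3 of 4 response genes to 2 of 6 storage and hydrolysis genes, 1 of 5 uptake and transport genes and 3 of 19 oxidoreductases. Among the receptors *Rara*, *Rarb*, *Rarg*, *Rxra* and *Rxrb* were highest there and *Rxrg* was not. The level in replicate 1 over the mean of the other 4 livers was 2.68-fold for *Cyp26a1*, 1.64-fold for *Rarb*, 1.44-fold for *Rara* and 1.25-fold for *Rxra*, and it was 0.886-fold for *Rarres1*. Replicate 1 also had the largest median-of-ratios factor for rescaling a library, at 1.05. The counts and ratios here use CPM that were not rescaled by it. Which liver was highest after rescaling was not tested.

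**Figure D4:**
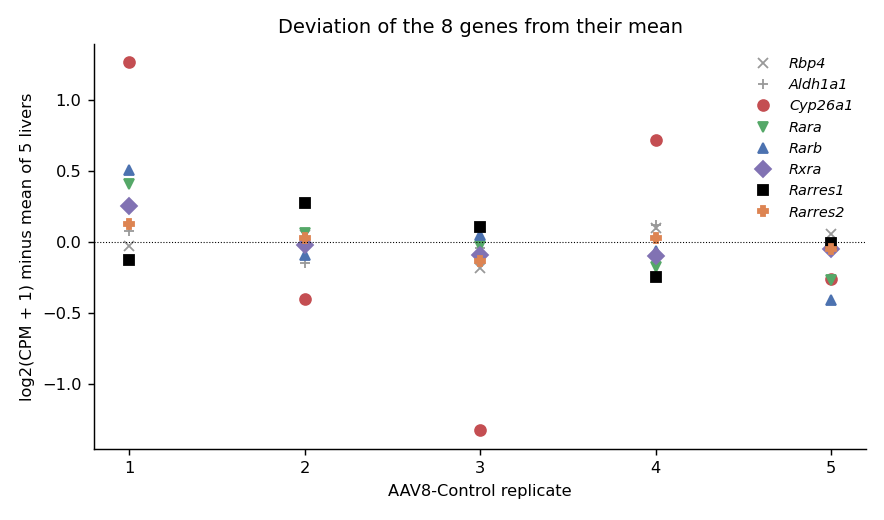
Deviation of log2(CPM + 1) from the mean of the 5 AAV8-Control livers (vertical axis) for each of the 8 genes, by replicate number (horizontal axis). *Cyp26a1* departs most from its mean, above it in replicates 1 and 4 and below it in replicates 2, 3 and 5, and *Rarres1* and *Rbp4* are below their means in replicate 1.

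Cell type markers were examined beside these values, since *Lrat* and *Rbp4* belong to different cells, and in bulk livers the number of cells of a type and the RNA per cell cannot be told apart. Summed levels ran from 304 to 423 CPM for 15 stellate cell markers, *Lrat* among them, and from 192 to 392 CPM for 10 Kupffer cell and macrophage markers. For 7 sinusoidal endothelial markers the range was 116 to 245 CPM, for 8 cholangiocyte markers 47.4 to 70.8 CPM and for 5 mesothelial markers 7.16 to 17.1 CPM. Lymphocyte, neutrophil and adipocyte markers summed to at most 3.47, 1.52 and 5.13 CPM in any liver. Replicate 1 was the highest library for endothelial markers (245 CPM) and adipocyte markers (5.13 CPM), between the extremes for stellate markers (329 CPM), and the lowest for hepatocyte markers (97718 CPM). Replicate 4 was the highest for hepatocyte markers (133021 CPM) and the lowest for stellate (304 CPM), endothelial (116 CPM) and adipocyte markers. Replicate 2 was the highest for stellate (423 CPM), Kupffer cell (392 CPM), cholangiocyte, mesothelial and lymphocyte markers. The part that cell composition had in the retinoid values was not tested.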

How the data were processed

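Livers of 5 AAV8-Control *db/db* mice were profiled from poly-A selected RNA in single reads of 50 bases; the other libraries of the series are not reported here. Reads were aligned by the authors to Ensembl release 76 (GRCm38.p2) with STAR 2.0.4b, and uniquely aligned, unambiguous reads were counted per gene with Subread featureCounts 1.4.5. The deposited values are CPM, that is read counts scaled by the authors to the assigned total of each library, and the deposited table holds protein-coding genes only. Of its 15236 lines, 110 repeated a gene with the same values and were dropped. Every CPM value was a whole multiple of 1 read to within 0.05 read, so reads and library totals were recovered. In the lowest pair of replicates, counts differed by 15.9 times the sampling noise (chi-square per degree of freedom), so none was the same library deposited again; separate libraries made from 1 liver could not be told from separate livers this way.

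Means, SDs and the SD of log2(CPM + 1) were computed over the 5 livers with numpy 2.4.6 and pandas 2.3.3, after a check on simulated data. Each SD was ranked among the 11041 genes whose CPM averaged 1 or more. Counting error is that of the mean read count of a gene and covers sampling of reads only. Levels per length use the union of annotated exons, or, for genes that overlap others, also the bases outside the overlap (chosen after seeing the data). No test between groups was made.

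Genes were named by rule: the 8 genes and the most abundant gene per length of each pathway list, and every other gene was singled out after its values were seen. The 8 genes, the pathway and marker lists and the rule were chosen with earlier results of these data known. Positions come from GENCODE M21 (GRCm38) and upstream sequences from RefSeq (GRCm38.p6).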

Additional observations from a re-analysis of the deposited data

Results flagged for a closer look

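Single livers lay far from the other 4 for 5 genes, by a gap that exceeded Dixon's 95% critical value of 0.71 for 5 samples. In AAV8-Control replicate 1, *Rxra* was at 463 CPM against 361 to 382 CPM in the others. In the same liver *Cyp26b1* was at 42.1 CPM against 3.54 to 11.1 CPM, and *Rxrb* at 23.7 CPM against 18.8 to 20.2 CPM. The Dixon ratio of *Rxrb* was 0.717, only just over the critical value. Whether it would pass after rescaling the libraries was not tested. The retinol dehydrogenase *Rdh7* was at 777 CPM in replicate 3, below the 897 to 921 CPM of the others, and *Dhrs9*, a related dehydrogenase, was at 4.40 CPM in replicate 5 against 2.60 to 2.82 CPM. Without replicate 3 *Rdh7* was at 908 ± 10.2 CPM, and without replicate 5 *Dhrs9* was at 2.72 ± 0.0982 CPM (SD, n = 4 each). In all, 58 genes were checked in the 5 livers and these 5 (8.62%) stood out, against 5.78% of all 11041 genes, where chance alone gives about 1 in 20. Replicate 1 held 3 of the 5, and 42.6% of those found over all genes. The part that library composition had in this was not tested.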

How the results depend on the processing

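The alternatives used for levels and spread were chosen after seeing the data. Rescaling the libraries by median-of-ratios factors or by the upper quartile used factors of 0.970 (replicate 4) to 1.05 (replicate 1) and so could move the mean levels little. Leaving out 1 of 5 livers cannot move a mean by as much as 1 SD, so these ranges show the size of the shift only. Without 1 library the mean CPM ran from 77.3 to 84.8 for *Rarres1*, 225 to 235 for *Rarres2*, 2714 to 2846 for *Rbp4*, 2609 to 2732 for *Aldh1a1*, 19.7 to 22.4 for *Rara*, 5.74 to 6.96 for *Rarb*, 370.4 to 396 for *Rxra* and 46.4 to 72.6 for *Cyp26a1*. The share of genes with a larger spread depended more on single livers. It ran from 0.0543% to 0.308% for *Cyp26a1* and was 0.272% with a pseudocount of 0.1 CPM, it ran from 3.54% to 22.2% for *Rarb*, and for *Rxra* it reached 95.9% without replicate 1. Rescaling moved this share too. With median-of-ratios factors it went from 44.7% to 64.3% for *Rxra*, from 64.9% to 51.6% for *Rbp4* and from 13.2% to 17.0% for *Rara*. For *Cyp26a1* it stayed at 0.0996%. No paired analysis was possible because no groups were compared, and the alternatives planned for tests between groups were not run. Depth limits *Rarb* most among the 8 genes, since it rests on the fewest reads.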
